A study of Rattus norvegicus with 16 samples.

Results

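10 genes of Toll-like receptor sensing were followed in rat liver under anesthesia with and without sepsis. They are the receptors Tlr2, Tlr3, Tlr4 and Tlr5, the co-receptors Cd14 and Ly96, the adaptors Myd88 and Ticam2, and the kinase family members Irak2 and Irak3. The members were chosen by name, with earlier results of these data known. All 10 were among the 17055 gene symbols counted in each of 16 libraries.

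The rats were male Sprague-Dawley animals aged 10 weeks, given 1 of 2 anesthetics and either made septic or kept as control. For sepsis the cecum was ligated and punctured, so that gut contents leak into the abdomen, and in control rats the cecum was taken out and put back. Isoflurane rats were both induced and maintained with the inhaled anesthetic isoflurane, whereas propofol rats were induced with ketamine and xylazine before an infusion of propofol, so that the anesthetics differ in their induction drugs too. All groups were operated on under anesthesia, and livers were taken 8 h after the abdomen was opened. There was no group without anesthesia or surgery. Each library pooled the liver tissue of 3 rats, with 12 rats in each group and 48 in all. The 4 libraries of a group are numbered 1 to 4 for Isoflurane-Sepsis, 5 to 8 for Isoflurane control, 9 to 12 for Propofol-Sepsis and 13 to 16 for Propofol control, and the spread between them is a spread between pools. Isoflurane and propofol libraries carry different submission identifiers, so anesthetic and library handling cannot be told apart.

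Toll-like receptors recognise molecules that microbes share. Tlr2 and Tlr4 sit at the cell surface and respond to bacterial lipoproteins and to lipopolysaccharide, Tlr5 responds to flagellin, and Tlr3 senses double-stranded RNA inside endosomes. Cd14 binds lipopolysaccharide and passes it to Ly96 (MD-2), the partner of Tlr4. Myd88 couples most of these receptors to the IRAK kinases and to NF-κB, Ticam2 (TRAM) links Tlr4 to the TRIF branch, and Tlr3 signals through TRIF without Myd88. Irak2 carries the signal on, and Irak3 (IRAK-M) restrains it. In the liver the resident macrophages, or Kupffer cells, are a main site of this sensing, and hepatocytes respond as well.

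Levels are given as counts per 1000000 reads on genes (CPM) after TMM scaling over all 16 libraries, and compare libraries and not genes, since transcript length was not taken into account. The libraries held 14199422 to 49937173 reads on genes each. In whole tissue, more cells of a type and more RNA per cell cannot be told apart. The summed level of 10 hepatocyte markers was between 102400 and 160600 CPM in every library, the labelled tissue being liver. Propofol-Sepsis library 10 stood apart. The summed level of 9 brain markers was 387.5 CPM in it and between 4.84 and 24.5 CPM in the other 15 libraries. Tests of the members that include it are therefore also given without it.

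The region before the gene start is shown for Tlr2 and Irak3, which rose, for Tlr3, which fell, and for Myd88, which did not pass the test between sepsis and control. Each is the 250 bases before the annotated start, from RefSeq on build GRCr8, which is not the build named in the submitters' notes. The table held 8 of the 10 members, without Irak2 and Ly96. The windows lie at chr2:171504558-171504807 (Tlr2, minus strand), chr7:57598632-57598881 (Irak3, minus strand), chr16:53554666-53554915 (Tlr3, plus strand) and chr8:127956231-127956480 (Myd88, minus strand). They were searched on both strands for a loose form of the κB consensus of NF-κB, the AP-1 motif TGANTCA and an ISRE-type motif, GAAA on both sides of any 2 bases. Capitals mark the matches, read 5′ to 3′.
Tlr2: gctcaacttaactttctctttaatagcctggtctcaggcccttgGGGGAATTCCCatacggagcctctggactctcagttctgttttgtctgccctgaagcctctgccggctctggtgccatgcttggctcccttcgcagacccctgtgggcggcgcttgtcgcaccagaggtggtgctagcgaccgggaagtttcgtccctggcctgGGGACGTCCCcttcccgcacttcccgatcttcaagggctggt
Irak3: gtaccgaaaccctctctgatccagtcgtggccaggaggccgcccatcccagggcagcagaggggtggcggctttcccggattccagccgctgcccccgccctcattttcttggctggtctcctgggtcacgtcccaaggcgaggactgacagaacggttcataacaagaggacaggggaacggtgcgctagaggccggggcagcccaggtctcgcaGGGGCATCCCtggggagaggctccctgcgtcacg
Tlr3: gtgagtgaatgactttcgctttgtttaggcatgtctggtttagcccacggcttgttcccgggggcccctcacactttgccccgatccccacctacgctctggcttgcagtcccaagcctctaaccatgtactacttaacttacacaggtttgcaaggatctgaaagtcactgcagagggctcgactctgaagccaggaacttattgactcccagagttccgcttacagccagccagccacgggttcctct
Myd88: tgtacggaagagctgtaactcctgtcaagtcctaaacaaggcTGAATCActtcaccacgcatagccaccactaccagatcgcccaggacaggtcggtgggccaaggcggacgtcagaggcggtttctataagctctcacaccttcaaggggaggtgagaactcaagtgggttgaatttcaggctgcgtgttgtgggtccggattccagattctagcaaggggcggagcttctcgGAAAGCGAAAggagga

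Tlr2 held κB letters at 206 and, overlapping, at 205 bases before its start and again at 42, and Irak3 at 34. The κB consensus was met in 2 of the 8 members with a window and in 6.33% of 33469 such windows over all genes. Myd88 held the AP-1 letters at 208 and the ISRE-type letters at 16, each the match of 1 member, against 6.34% and 3.41% of all windows. The Tlr3 window held none of the 3 motifs, nor did those of Tlr4, Tlr5, Cd14 and Ticam2. A match is a run of letters and not a site shown to be bound.

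A difference was called at a Benjamini-Hochberg adjusted p under 0.05 over all genes tested with the quasi-likelihood test of edgeR. In septic liver 4 members were higher and 1 was lower than in control liver under each anesthetic. Tlr2, Cd14, Irak2 and Irak3 rose and Tlr3 fell, under isoflurane and under propofol. Tlr4, Ly96, Myd88 and Ticam2 did not pass the test in either comparison, and Tlr5 had too few reads to enter it. The count was 5 of 9 members tested under isoflurane, where 50.0% of all genes tested were called (25.7% higher and 24.4% lower in sepsis). Under propofol it was again 5 of 9, where 42.1% of all genes were called (20.4% higher and 21.7% lower). Scaling by library totals alone turned the propofol split of all genes from 2107 higher and 2246 lower to 1675 and 2700. The members' share was thus near that of all genes, and what follows concerns the size and the direction of single members. The median log2 fold change of the members tested was 0.31 under isoflurane and 0.165 under propofol, against 0.006 and -0.002 over all genes. The members were chosen with earlier results of these data known, so these medians are a description only. Septic and control libraries did not overlap for the 5 called members, as was true of 48.7% of all genes tested under isoflurane and 42.2% under propofol. Without Propofol-Sepsis library 10, 5 members were again called under propofol, by name the same 5, where 4291 of 10397 genes were called, and Tlr5 entered that fit with a log2 fold change of 0.38 (adjusted p = 0.372).

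**Figure D1:**
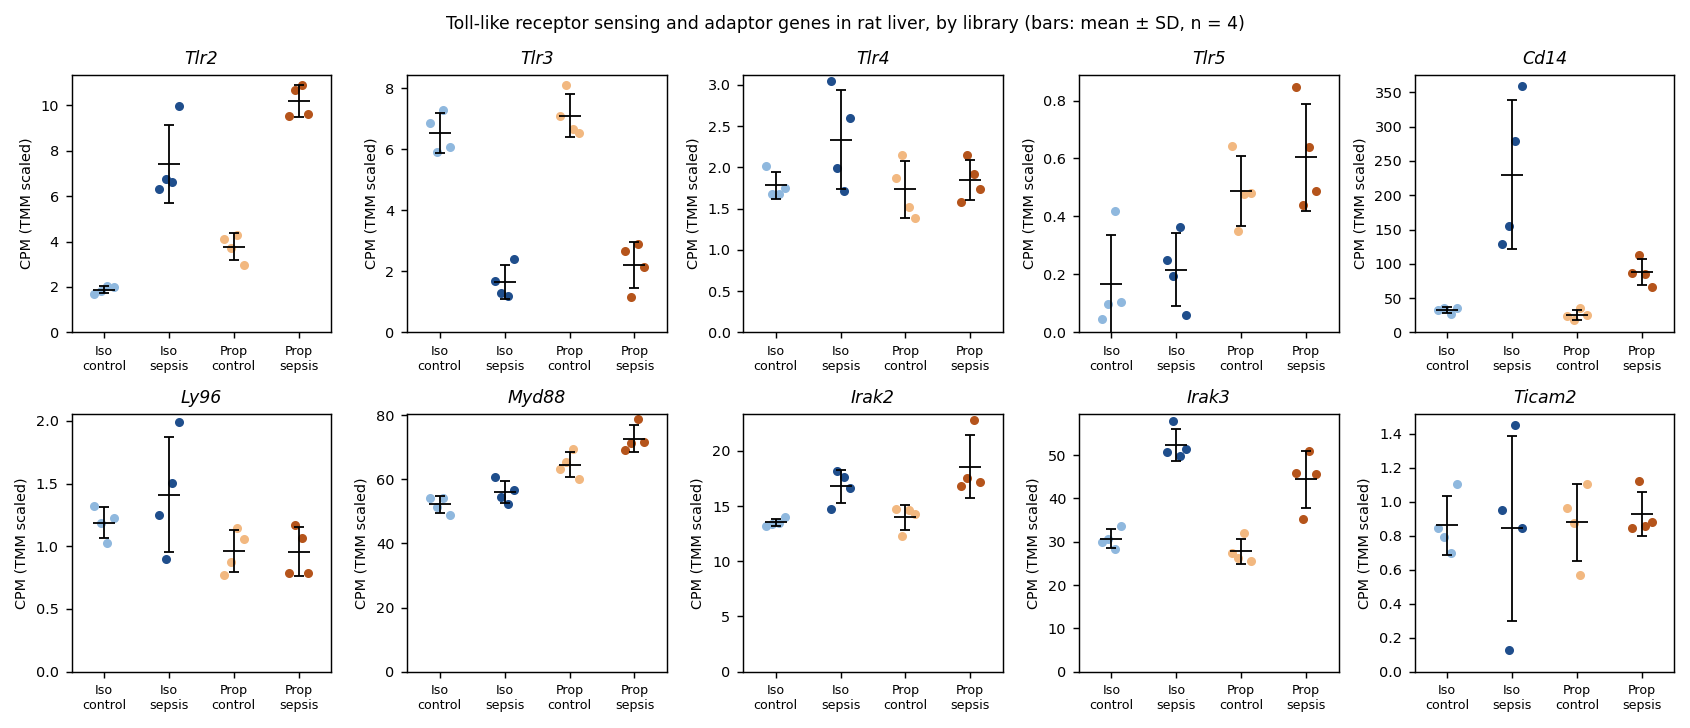
Level of each of the 10 genes in each library, in CPM after TMM scaling, with every axis starting at 0; points are libraries, and bars give the mean ± SD of the 4 libraries of a group. Cd14 lay between 128 and 359 CPM in Isoflurane-Sepsis and between 65.7 and 113 CPM in Propofol-Sepsis, above all control libraries, whereas Tlr3 lay below its controls in every septic library.

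Among the surface receptors, Tlr2 was higher in sepsis. The Isoflurane-Sepsis libraries held 6.34, 6.77, 6.63 and 9.97 CPM and the Isoflurane control libraries 1.69, 1.83, 2.04 and 1.98 CPM. The Propofol-Sepsis libraries held 9.54, 10.7, 10.9 and 9.64 CPM against 4.12, 3.73, 4.29 and 2.98 CPM in Propofol control. In both anesthetics every septic library was above every control library, and the Isoflurane-Sepsis mean was carried up by library 4. The mean was 3.94-fold higher in sepsis under isoflurane, with a log2 fold change of 1.97 (SE 0.172, adjusted p = 8.8e-05), and 3.05% of all genes tested had a larger absolute change. Under propofol the mean was 2.70-fold higher, with a log2 fold change of 1.43 (SE 0.127, adjusted p = 5.8e-05). Without library 10 that value was 1.41. Over the 4 groups the level of Tlr2 was lowest in Isoflurane control (1.89 ± 0.157 CPM, SD, n = 4), then Propofol control (3.78 ± 0.583), then Isoflurane-Sepsis (7.43 ± 1.71) and highest in Propofol-Sepsis (10.2 ± 0.700). The septic groups overlapped at a single library, since library 4 lay above 2 of the Propofol-Sepsis libraries, and the other neighbours in that order did not overlap.

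Tlr4, the receptor for lipopolysaccharide, stayed within 1.39 and 3.04 CPM in all 16 libraries. Its reads per library numbered between 28 and 84. The Isoflurane-Sepsis libraries held 3.04, 2.00, 1.71 and 2.60 CPM, around the 1.67 to 2.02 CPM of Isoflurane control, so the groups overlapped. The log2 fold change under isoflurane was 0.40 (95% interval -0.04 to 0.83, adjusted p = 0.119). It passed the test without library 3 (0.52, adjusted p = 0.0466). Under propofol the range was 1.58 to 2.15 CPM in sepsis and 1.39 to 2.15 CPM in control, and the log2 fold change was 0.09 (95% interval -0.36 to 0.54, adjusted p = 0.742), and 0.02 without library 10 (adjusted p = 0.933). Both intervals end below the log2 fold changes of Tlr2 in the same comparison.

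Tlr5, the flagellin receptor, was at the edge of detection, with between 1 and 16 reads per library. The Isoflurane-Sepsis libraries held 5, 3, 7 and 1 reads and the Isoflurane control libraries 1, 2, 9 and 5. The Propofol-Sepsis libraries held 15, 9, 12 and 16 reads and the Propofol control libraries 10, 6, 10 and 10. Sepsis and control overlapped under both anesthetics. Pooled over libraries and set per read on genes, the ratio of sepsis to control was 1.40 under isoflurane (95% interval 0.663 to 2.95) and 1.15 under propofol (0.737 to 1.81), and these intervals cover counting error only. Library 7 held 9 of the 17 Isoflurane control reads, and without it the ratio under isoflurane was 2.40 (0.969 to 6.48), a value chosen after seeing the data. Without library 10 the ratio under propofol was 1.23 (0.772 to 1.97). A difference between sepsis and control was not detectable at this depth.

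Cd14 had the largest absolute fold change of the members tested in both comparisons. The Isoflurane-Sepsis libraries held 128, 155, 279 and 359 CPM, against 32.5, 35.0, 26.2 and 36.0 CPM in Isoflurane control. The Propofol-Sepsis libraries held 87.2, 113, 85.7 and 65.7 CPM, against 23.8, 17.4, 35.6 and 25.9 CPM in Propofol control. No septic library came down to a control library under either anesthetic, and the Isoflurane-Sepsis libraries were the most scattered, at 230.1 ± 108.0 CPM (SD, n = 4). The mean was 7.10-fold higher in sepsis under isoflurane and 3.42-fold higher under propofol. The log2 fold changes were 2.83 (SE 0.324, adjusted p = 0.000251) and 1.76 (SE 0.214, adjusted p = 0.000246), and 1.62 under propofol without library 10. Of all genes tested, 1.07% under isoflurane and 2.78% under propofol had a larger absolute change. The control groups overlapped each other (32.4 ± 4.40 and 25.7 ± 7.56 CPM), and the septic groups did not.

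Ly96, the partner of Tlr4 that binds the lipid part of lipopolysaccharide, was low, with between 12 and 59 reads per library. It held between 0.902 and 1.99 CPM in Isoflurane-Sepsis and between 1.02 and 1.32 CPM in Isoflurane control. In Propofol-Sepsis it held between 0.791 and 1.17 CPM and in Propofol control between 0.772 and 1.14 CPM. Both pairs of groups overlapped. The log2 fold changes were 0.25 (95% interval -0.29 to 0.79, adjusted p = 0.414) and -0.03 (95% interval -0.55 to 0.48, adjusted p = 0.921), the latter -0.16 without library 10 (adjusted p = 0.620). Of the 3 lipopolysaccharide-sensing genes Cd14, Ly96 and Tlr4, the test was thus passed by Cd14 under both anesthetics.

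Tlr3, the endosomal receptor for double-stranded RNA, moved the other way. The Isoflurane-Sepsis libraries held 1.70, 1.29, 1.19 and 2.42 CPM, against 6.87, 5.89, 7.29 and 6.06 CPM in Isoflurane control. The Propofol-Sepsis libraries held 2.65, 1.17, 2.89 and 2.13 CPM, against 7.08, 8.09, 6.67 and 6.53 CPM in Propofol control. Every septic library was below every control library, and library 10 was the lowest of the Propofol-Sepsis group. The mean was 3.96-fold lower in sepsis under isoflurane and 3.21-fold lower under propofol. The log2 fold changes were -1.98 (SE 0.206, adjusted p = 0.000170) and -1.69 (SE 0.236, adjusted p = 0.000481), and -1.49 under propofol without library 10. The septic groups overlapped each other, as did the control groups. An annotated long non-coding RNA, LOC134482381, overlaps Tlr3, and whether the counting kept the strand is not given in the sources used here.

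Myd88, the adaptor shared by Tlr2, Tlr4 and Tlr5, was among the well counted members, with between 844 and 2355 reads per library, and differed little between sepsis and control. It held 60.6, 54.4, 52.4 and 56.7 CPM in Isoflurane-Sepsis and 54.2, 51.2, 54.3 and 49.0 CPM in Isoflurane control. In Propofol-Sepsis it held 69.0, 71.3, 78.9 and 71.6 CPM and in Propofol control 63.1, 65.5, 69.5 and 60.2 CPM. The ranges of sepsis and control overlapped under both anesthetics, under propofol by 1 library of each group. The log2 fold change was 0.10 under isoflurane (95% interval -0.05 to 0.26, adjusted p = 0.222) and 0.17 under propofol (95% interval 0.02 to 0.31, adjusted p = 0.0684), and 0.18 without library 10 (adjusted p = 0.0598).

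Ticam2, the bridging adaptor of the TRIF branch at Tlr4, had between 2 and 53 reads per library. Isoflurane-Sepsis libraries held 0.948, 0.129, 1.45 and 0.846 CPM, so that the lowest and the highest of all 16 libraries lay in this group. The other groups ranged from 0.697 to 1.10 CPM in Isoflurane control, from 0.847 to 1.12 CPM in Propofol-Sepsis and from 0.571 to 1.10 CPM in Propofol control. All groups overlapped. The log2 fold change was -0.02 under isoflurane (95% interval -1.05 to 1.01, adjusted p = 0.975) and 0.07 under propofol (95% interval -0.48 to 0.63, adjusted p = 0.831), and -0.02 without library 10 (adjusted p = 0.979).

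The IRAK family members both rose. Irak2 held 14.7, 18.2, 17.6 and 16.6 CPM in Isoflurane-Sepsis and 13.2, 13.4, 13.4 and 14 CPM in Isoflurane control. In Propofol-Sepsis it held 16.8, 17.6, 22.8 and 17.2 CPM and in Propofol control 14.7, 12.3, 14.6 and 14.3 CPM. The groups did not overlap, although the gap between the nearest libraries was small. The log2 fold change was 0.31 under isoflurane (SE 0.0884, adjusted p = 0.0164) and 0.40 under propofol (SE 0.111, adjusted p = 0.0165), the latter 0.43 without library 10. The call under propofol was lost without library 14 (0.35, adjusted p = 0.0503). An annotated long non-coding RNA, LOC120102364, overlaps Irak2.

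Irak3, the restraining member, rose by more. It held 50.6, 57.9, 49.7 and 51.5 CPM in Isoflurane-Sepsis and 30.0, 30.7, 28.4 and 33.6 CPM in Isoflurane control. In Propofol-Sepsis it held 45.8, 35.3, 51.0 and 45.7 CPM and in Propofol control 27.4, 26.2, 32.0 and 25.6 CPM. No septic library reached down to a control library, and library 10 was again the lowest of its group. The mean was 1.71-fold higher under isoflurane and 1.60-fold higher under propofol. The log2 fold changes were 0.78 (SE 0.0782, adjusted p = 0.000155) and 0.67 (SE 0.114, adjusted p = 0.00137), and 0.77 under propofol without library 10.

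**Figure D2:**
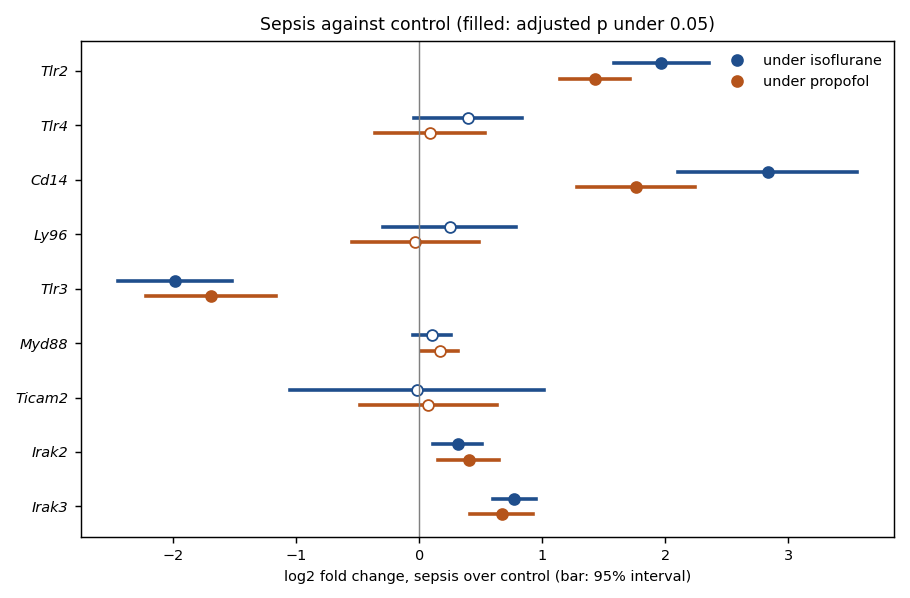
Log2 fold change of sepsis over control for the 9 genes tested, under isoflurane and under propofol; points are the edgeR estimates, bars their 95% intervals, and filled points have an adjusted p under 0.05. Tlr2, Cd14, Irak2 and Irak3 are filled to the right of 0 and Tlr3 to the left under both anesthetics, with Cd14 at 2.83 and 1.76.

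Ratios of members within a library do not depend on the scaling, and are described here without a test. The log2 ratio of Cd14 to Tlr4 reads was 6.52 ± 0.883 in Isoflurane-Sepsis and 4.16 ± 0.220 in Isoflurane control (SD, n = 4). It was 5.54 ± 0.246 in Propofol-Sepsis and 3.85 ± 0.669 in Propofol control, and septic and control libraries did not overlap under either anesthetic. The log2 ratio of Tlr2 to Tlr4 was 1.67 ± 0.420 against 0.08 ± 0.234 under isoflurane and 2.46 ± 0.114 against 1.12 ± 0.284 under propofol, again with no overlap. The ratios of Cd14 and of Tlr2 reads to Tlr4 reads were thus higher in septic than in control liver. The log2 ratio of Irak3 to Irak2, the restraining member over the transmitting one, was 1.64 ± 0.118 in Isoflurane-Sepsis, above every Isoflurane control library (1.18 ± 0.075). Under propofol it was 1.26 ± 0.210 against 0.99 ± 0.143, and the libraries overlapped through library 10 alone (1.01). The other Propofol-Sepsis libraries lay between 1.16 and 1.45, above the highest Propofol control library (1.13). The log2 ratio of Ticam2 to Myd88 overlapped between sepsis and control under both anesthetics and fell to -8.47 in library 2, where Ticam2 had 2 reads. Without library 10 the Propofol-Sepsis log2 ratios were 5.48 ± 0.270 for Cd14 to Tlr4, 2.51 ± 0.061 for Tlr2 to Tlr4, 1.34 ± 0.157 for Irak3 to Irak2 and -6.37 ± 0.105 for Ticam2 to Myd88 (SD, n = 3).

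**Figure D3:**
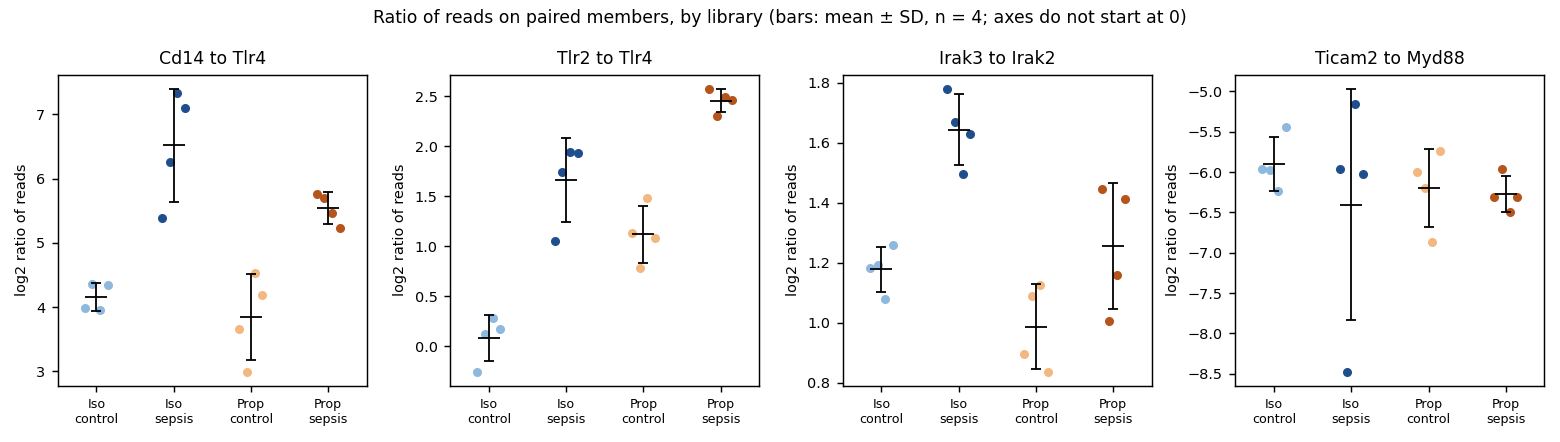
Log2 ratio of the reads on paired genes in each library; points are libraries and bars the mean ± SD of the 4 libraries of a group, on axes that do not start at 0. Cd14 to Tlr4 and Tlr2 to Tlr4 separate septic from control libraries under both anesthetics. Irak3 to Irak2 does so under isoflurane and, except for library 10, under propofol.

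An interaction term, isoflurane minus propofol, tested whether the anesthetics differed in the response to sepsis, with all 16 libraries in the fit. With edgeR 0 of 10 members were called, where 2.72% of all genes were. DESeq2 and limma-voom called 0 as well. At an unadjusted p under 0.05 edgeR held 2 members, Cd14 and Tlr2, where 23.1% of all genes had such a p. The rise of Cd14 was larger under isoflurane by 1.05 on the log2 scale (95% interval 0.20 to 1.91, adjusted p = 0.136), and that of Tlr2 by 0.53 (95% interval 0.08 to 0.98, adjusted p = 0.154). Neither difference was therefore shown. Cd14 passed without library 1, the lowest Isoflurane-Sepsis library (1.25, adjusted p = 0.0305). In that fit 1615 of 10708 genes were called, against 289 of 10621 in the main fit. For the other 8 members the adjusted p was between 0.527 and 0.923. Without library 10, 0 members were called and 398 of 10659 genes were, with Cd14 at 1.20 (adjusted p = 0.0948), Tlr2 at 0.55 (adjusted p = 0.143), Tlr3 at -0.50 (adjusted p = 0.242) and the other members at an adjusted p between 0.410 and 0.999.

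Isoflurane and propofol were also compared within control liver and within septic liver. In control liver 2 of 9 members tested were called, where 43.3% of all genes tested were (and 40.3% did not overlap between the groups). Tlr2 was 2.00-fold lower in Isoflurane control than in Propofol control, with no overlap of the libraries and a log2 difference of -0.99 (SE 0.143, adjusted p = 0.000375). Myd88 was also lower in Isoflurane control, at 52.2 ± 2.54 against 64.6 ± 3.91 CPM (SD, n = 4), with no overlap and a log2 difference of -0.31 (SE 0.0590, adjusted p = 0.00190). Cd14 and Irak3 had log2 differences of 0.33 and 0.14 (adjusted p = 0.150 and 0.160), the latter -0.001 under scaling by library totals alone, and both passed without library 15 (adjusted p = 0.0101 and 0.0246). The isoflurane libraries had lower TMM factors than the propofol libraries, 0.920 to 0.979 against 1.02 to 1.09. Scaling by library totals alone shifted the median log2 difference of all genes to -0.15 in control liver and -0.16 in septic liver. It turned the split of called genes in control liver from 2225 higher and 2243 lower in isoflurane to 1139 and 3824, and in septic liver from 1092 and 890 to 594 and 2177. Relative to that shift Tlr2 and Myd88 remained lower in Isoflurane control, at -1.13 and -0.45 before it is taken off. Cell type markers differed between these groups too. In Isoflurane control all 3 monocyte markers tested (Itgam, Plac8 and Lyz2) and 4 of 11 Kupffer cell and macrophage markers (Vsig4, Csf1r, Emr1 and Cd5l) were called lower and 8 of 10 hepatocyte markers higher. The 10 hepatocyte markers summed to between 149900 and 160600 CPM there and to between 110900 and 123100 CPM in Propofol control. The part of these cells in the differences of Tlr2 and Myd88 was not tested.

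In septic liver 2 of 9 members were called, where 19.3% of all genes tested were (and 25.6% did not overlap). Cd14 was 2.62-fold higher in Isoflurane-Sepsis than in Propofol-Sepsis, with no overlap and a log2 difference of 1.39 (SE 0.323, adjusted p = 0.0239). Myd88 was lower in Isoflurane-Sepsis, at 56.0 ± 3.54 against 72.7 ± 4.30 CPM (SD, n = 4), with no overlap and a log2 difference of -0.38 (SE 0.0785, adjusted p = 0.0178). Without library 10 these were 1.53 (adjusted p = 0.0241) and -0.39 (adjusted p = 0.0234). The call of Cd14 was lost without library 3, 9, 11 or 12 (adjusted p between 0.0583 and 0.0800) and that of Myd88 without library 9, 11 or 12 (0.0540 to 0.0650). Leaving out any of these last 3 also took the calls over all genes from 1982 to between 249 and 314. Tlr2 was at -0.46 (adjusted p = 0.0653), and at -0.44 without library 10 (adjusted p = 0.102). It passed in 5 of 16 alternatives, among them DESeq2 (adjusted p = 0.0359) and the fit without library 4 (-0.63, adjusted p = 0.0155). Of the markers, 4 of 10 for hepatocytes and Cd163 and C1qc of 11 for Kupffer cells and macrophages were called higher in Isoflurane-Sepsis, and 4 of 6 for sinusoidal endothelium lower. The Kupffer cell and macrophage list was split. Vsig4, Cd5l and Emr1 had log2 differences of -0.52, -0.47 and -0.43 (adjusted p = 0.0531, 0.0606 and 0.0735), whereas Cd68 had 0.39 (adjusted p = 0.0530). The hepatocyte markers summed to between 125600 and 140000 CPM in Isoflurane-Sepsis and to between 102400 and 114700 CPM in Propofol-Sepsis. The part of these cells in the differences of Cd14 and Myd88 was not tested.

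Tlr5 did not pass the read filter of the fits between anesthetics, and it was called lower under isoflurane in both of these comparisons in the fit of all 16 libraries. Its pooled reads set per read on genes gave a ratio of isoflurane to propofol of 0.286 in control liver (95% interval 0.151 to 0.523) and 0.349 in septic liver (0.186 to 0.621), for counting error only. Without library 7 the ratio in control liver was 0.167 (0.0671 to 0.366), and without library 10 that in septic liver was 0.326 (0.172 to 0.591). The septic libraries did not overlap, as was true of 25.6% of all genes tested there, and the control libraries overlapped through library 7. Acaa1a, a peroxisomal thiolase gene on the other strand, overlaps Myd88 in the annotation. Its level was 4.25 ± 0.559 CPM in Isoflurane control and 4.56 ± 0.899 CPM in Propofol control (SD, n = 4), with a log2 difference of -0.08 (adjusted p = 0.682). Acaa1a fell in sepsis, by 0.90 on the log2 scale under isoflurane (adjusted p = 0.00355) and by 0.999 under propofol (adjusted p = 0.00143).

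**Figure D4:**
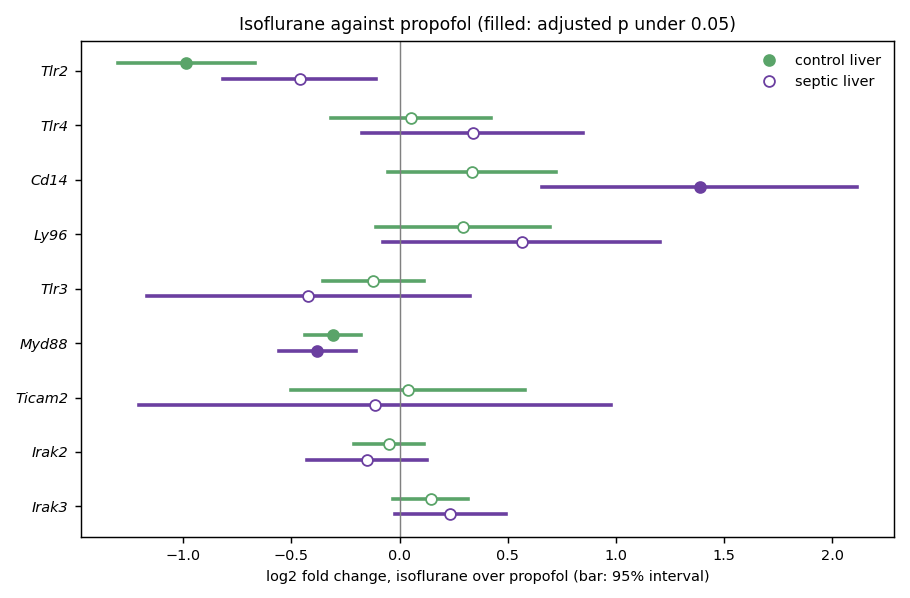
Log2 fold change of isoflurane over propofol for the 9 genes tested, in control liver and in septic liver; points are the edgeR estimates, bars their 95% intervals, and filled points have an adjusted p under 0.05. Tlr2 (control liver, -0.99) and Myd88 (control liver, -0.31, and septic liver, -0.38) are filled to the left of 0, and Cd14 (septic liver, 1.39) to the right.

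Some marker lists of other cells also differed between septic and control liver. The summed level of 10 neutrophil markers, all in the files, was 30.2, 67.9, 106.6 and 85.6 CPM in libraries 1 to 4, between 16.2 and 18.3 CPM in Isoflurane control, between 32.5 and 46.4 CPM in Propofol-Sepsis and between 16.1 and 22.2 CPM in Propofol control. Most of this sum came from S100a8 and S100a9, with means of 26.1 and 33.5 CPM in Isoflurane-Sepsis, where the next marker, Csf3r, had 5.33 CPM. Of the 6 tested, 4 rose under each anesthetic (S100a8, S100a9, Csf3r and Ngp), where 25.7% of all genes rose under isoflurane and 20.4% under propofol, and Np4 was at 0 in both septic groups. The 5 monocyte markers in the files, of 6 listed, summed to 29.6, 45.9, 55.7 and 62.8 CPM in libraries 1 to 4, between 14.8 and 17.1 CPM in Isoflurane control, between 35.9 and 48.5 CPM in Propofol-Sepsis and between 22.4 and 30.0 CPM in Propofol control. Lyz2 and Itgam were the largest of them, with means of 29.2 and 12.8 CPM in Isoflurane-Sepsis. Library 1, the lowest of its group for Cd14, was the lowest for both lists, and libraries 3 and 4 were the highest for Cd14 and for both lists. Tlr2 was also lowest in library 1 and highest in library 4, but held 6.77 CPM in library 2 and 6.63 CPM in library 3. The part of these cells in the rise of Cd14 and Tlr2 was not tested.

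The Kupffer cell and macrophage list changed less in its sum. Its 11 markers in the files, of 12 listed, summed to between 504 and 680 CPM in Isoflurane-Sepsis, 422 and 524 CPM in Isoflurane control, 492 and 587 CPM in Propofol-Sepsis, and 514 and 565 CPM in Propofol control, with none at 0 throughout a group. Under isoflurane 7 of the 11 rose and Clec4f fell, and under propofol Marco, Emr1 and Cd5l rose and Clec4f fell, beside the same 25.7% and 20.4% of all genes that rose. Library 4 held the highest sums of this list and of the 8 stellate cell markers (739 CPM, against 425 to 537 CPM in the other 15 libraries). It also held the highest Tlr2, Cd14 and Ly96 of its group, and the highest Tlr3, which fell in sepsis. The 6 sinusoidal endothelium markers in the files, of 8 listed, summed to between 142 and 162 CPM in Isoflurane-Sepsis and between 187 and 241 CPM in Isoflurane control, and to between 191 and 204 CPM against 216 and 264 CPM under propofol, with none of the 6 at 0 throughout a group. Of these, Stab2, Lyve1 and Kdr were called lower in sepsis under isoflurane, and under propofol Stab2 and Kdr were called lower and Pecam1 higher, where 24.4% and 21.7% of all genes fell. The part of these cells in the change of any member was not tested. The 7 lymphocyte markers in the files, of 8 listed, summed to at most 5.13 CPM in any library, and the 3 cholangiocyte markers in the files, of 5 listed, to between 15.7 and 31.0 CPM.

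**Figure D5:**
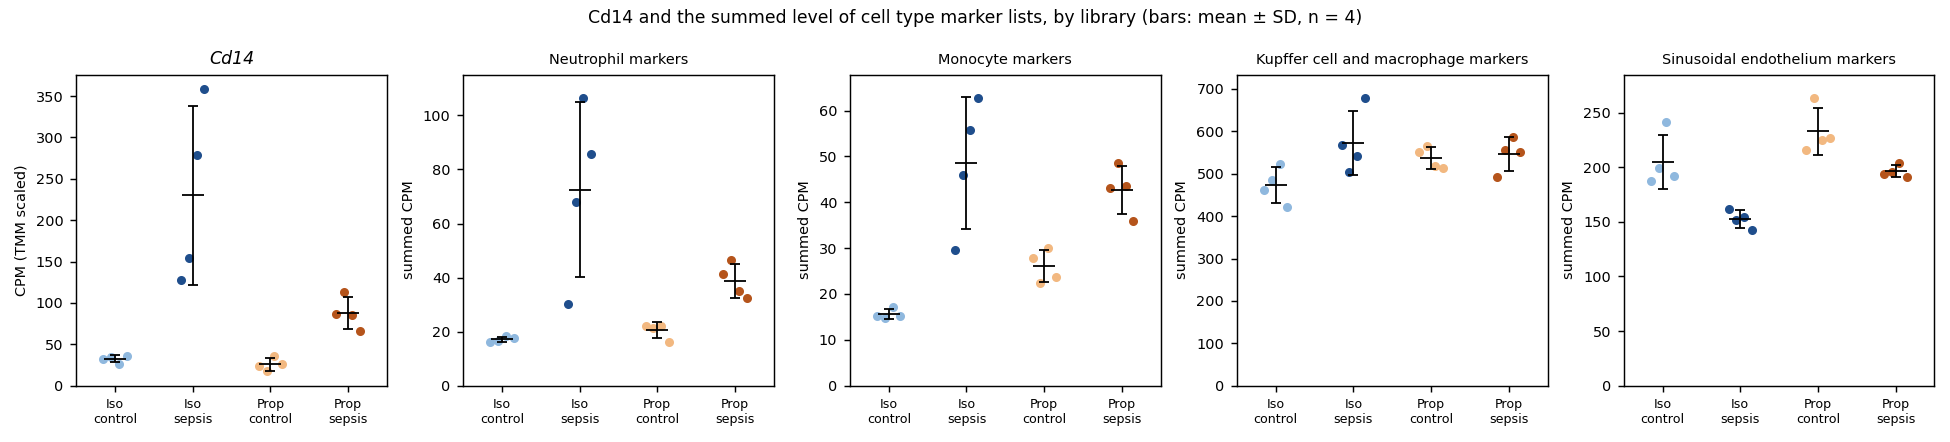
Level of Cd14 and summed level of the neutrophil, monocyte, Kupffer cell and macrophage, and sinusoidal endothelium marker lists in each library, in CPM, with axes from 0; points are libraries and bars the mean ± SD of the 4 libraries of a group. Cd14 and the neutrophil and monocyte sums are higher in every septic library than in the controls of the same anesthetic, while the Kupffer cell and macrophage sums overlap.

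The wider pathway was described from a list of 52 further genes, of which 47 were in the files. Under isoflurane 17 of 44 tested were called higher in sepsis and 5 lower, and under propofol 19 of 45 higher and 6 lower. Of all genes tested 25.7% were called higher and 24.4% lower under isoflurane, and 20.4% and 21.7% under propofol. Over both directions 22 of 44 were called under isoflurane, where 50.0% of all genes were, and 25 of 45 under propofol, where 42.1% were. The counts for each role are read beside these shares and single out no role. Without library 10, 18 of 45 were called higher and 7 lower under propofol. The median log2 fold change was 0.25 and 0.19, against 0.006 and -0.002 over all genes. Among sensing genes 5 of 14 rose and 1 fell under isoflurane, and 6 of 15 rose and 1 fell under propofol. Tlr1, which pairs with Tlr2, rose by 1.86 (adjusted p = 0.000409) and 1.44 (adjusted p = 0.00215) on the log2 scale under isoflurane and propofol. Tlr7, the receptor for single-stranded RNA, rose by 1.27 (adjusted p = 0.00350) and 1.06 (adjusted p = 0.000398), so that the endosomal receptors Tlr3 and Tlr7 moved in opposite directions. Lbp, the plasma protein that carries lipopolysaccharide to Cd14, rose by 1.58 (adjusted p = 0.000379) and 1.19 (adjusted p = 0.000165), from 833 ± 48.2 to 2487 ± 839.9 CPM under isoflurane and from 784 ± 100.8 to 1795 ± 338.0 CPM under propofol (SD, n = 4).

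Among the other adaptors and kinases 7 of 20 rose and 2 fell under isoflurane, and 8 of 20 rose and 3 fell under propofol. Map3k8, a kinase downstream of the receptors, rose by 1.41 (adjusted p = 6.7e-05) and 1.50 (adjusted p = 0.00102). Among inhibitors 5 of 10 rose and 2 fell under each anesthetic. Il1rl1, the interleukin-33 receptor, rose by 2.50 (adjusted p = 0.000162) and 2.36 (adjusted p = 0.000472), from low control means of 0.348 and 0.737 CPM. Without library 10 its rise under propofol was 1.99. Nfkbia, which holds NF-κB in the cytoplasm, rose by 1.10 (adjusted p = 0.000330) and 0.81 (adjusted p = 0.00235). Sigirr, an inhibitory receptor of the same family, fell by 1.17 (adjusted p = 0.000445) and 0.69 (adjusted p = 0.00196). Irak1bp1 fell by 2.00 (adjusted p = 0.000688) and 1.10 (adjusted p = 0.00259), at means of at most 2.02 CPM. The listed inhibitors thus did not move in a single direction, and the rise of Irak3 stood beside the fall of Sigirr.

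In the interaction 2 of 45 listed genes were called. Tlr6, the other partner of Tlr2, had a log2 fold change of -0.20 under isoflurane (adjusted p = 0.236) and 0.51 under propofol (adjusted p = 0.0108), a difference of -0.72 (adjusted p = 0.0473). Irf5, a transcription factor activated through Myd88, had 0.55 (adjusted p = 0.0236) and -0.40 (adjusted p = 0.0964), a difference of 0.93 (adjusted p = 0.0490). Both lay close to the threshold, and Tlr6 passed in 7 and Irf5 in 8 of 23 alternatives, both of them without library 10 (-0.75, adjusted p = 0.0446, and 0.96, adjusted p = 0.0469). Between the anesthetics 8 of 45 were called higher and 11 lower in Isoflurane control, where 43.3% of all genes were called, and 2 higher and 1 lower in Isoflurane-Sepsis, where 19.3% were. Without library 10 the latter were 2 higher and 2 lower.

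The genes whose pattern over the 16 libraries was most like that of each member were found by Pearson's r of log2 CPM among 8887 genes, as a description of libraries that share groups and depth. For Cd14 they were Adamts1 (r = 0.988), Lgmn and Rabgef1, and Adamts1 kept r = 0.928 after the 4 group means were taken off. For Tlr2 they included Akna (r = 0.985, and 0.896 without the group means) and Utp20. For Tlr3 they were Trim5 (r = 0.980, and 0.896), Cdk18 and R3hdm2. For Irak3 they were Capns1 (r = 0.975, and 0.788), Map3k8 and Cpne8, and for Irak2 they were Nfkbib (r = 0.891, and 0.655), Tmem252 and Ripk2. For Myd88 they were Psma5 (r = 0.917, and 0.564), Armc10 and Pomgnt1. Tlr4, Ly96 and Ticam2, with few reads, had no gene above r = 0.859 (Fam76a, Pter and Zfp192 came first), and Tlr5 was too low for the comparison.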

How the data were processed

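Liver RNA of 16 libraries was measured by poly(A), strand-keeping, single-end RNA sequencing. The authors deposited, for each library, whole-number read counts per gene symbol without normalization; the submitters' processing notes name STAR and rn5 (no version or role), and for the counting program and annotation nothing is stated in them or in the paper. Reads outside genes (21.6 to 25.4% of reads) and ambiguous reads (1.07 to 1.35%) entered neither library sizes nor tests. Groups were taken from the labels. Each pair of groups was fitted on all genes with edgeR 4.0.16 in R 4.3.3 (TMM scaling, filterByExpr set to 10 reads and 15 in total, quasi-likelihood test, Benjamini-Hochberg adjustment), and the interaction over all 16 libraries. Alternatives were RLE factors, library totals alone, DESeq2 1.42.0 (the study's tool), limma-voom (limma 3.58.1), no filter, a mean CPM of at least 1, thinning to 14199422 reads, a fit of all 16 libraries, and each library left out. The scripts were tested on simulated data. Counts of same-group libraries differed by more than sampling noise (chi-square per degree of freedom 3.35 to 96.3), so no pair of libraries within a group was the same library.

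The labels do not say how rats were assigned to pools, and p-values measure the spread between pools. The members, gene lists and marker lists were chosen with earlier results of these data known. All 10 members are named; of the 52 further pathway genes, those called in a sepsis comparison with an absolute log2 fold change above 1 or called in the interaction are named, and Lbp in any case. The 3 genes most like a member had the highest Pearson r at a mean log2 CPM above or at 1 (prior count 2). A gene under this rule is not reported here. The marker Adgre1 was matched by its older symbol Emr1. No reference genome was used, and windows before gene starts came from a RefSeq table.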

Additional observations from a re-analysis of the deposited data

Results flagged for a closer look

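Among 40 groups of 4 libraries, 10 genes in 4 groups, a single library lay far from the other 3 in 4 groups. The genes share the same libraries, and how often this arises by chance was not tested. Tlr2 was 9.97 CPM in Isoflurane-Sepsis library 4 and between 6.34 and 6.77 CPM in the others of its group. Tlr5 was 0.418 CPM in Isoflurane control library 7, from 9 reads, and between 0.0470 and 0.104 CPM in the others. Irak2 was 22.8 CPM in Propofol-Sepsis library 11 and between 16.8 and 17.6 CPM in the others. Ticam2 was 1.12 CPM in Propofol-Sepsis library 10, from 23 reads, and between 0.847 and 0.882 CPM in the others. Library 4 was also the highest of its group for Tlr3, Cd14 and Ly96, and library 10 is the one with brain markers.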

How the results depend on the processing

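The 5 members called between sepsis and control held in all 16 alternatives of each anesthetic, except Irak2 under propofol, which held in 15. With 1 library left out, the number of members called ranged from 5 to 6 under isoflurane, 4 to 5 under propofol, 0 to 1 in the interaction, 2 to 4 between control groups and 0 to 3 between septic groups. In the same order and fits, the calls over all genes ranged from 4145 to 5668, 3501 to 4291, 54 to 1615, 3715 to 4321 and 249 to 2867. The fit of all 16 libraries called 4 members between septic groups, adding Tlr2 and Tlr5, where it called 4099 of 10621 genes against 1982 of 10272 in the main fit. That fit and the one without a filter called Tlr5 between control groups, and Tlr5 was also called there without library 7 or 14. Tlr2 between septic groups passed with library totals (-0.61, adjusted p = 0.0233) and limma-voom (-0.48, adjusted p = 0.0497) too. Values that changed sign lay within 0.18 of 0 in the main fits, and those of Ticam2 and Tlr5, with few reads, ranged widely. Tlr4 under propofol was -0.14 on thinned counts and ranged from -0.002 to 0.213 over left-out libraries. Between control groups library totals gave Ticam2 -0.109, Tlr4 -0.092 and Irak3 -0.001, the fit of all 16 libraries gave Ticam2 -0.002, and left-out libraries gave Tlr4 -0.051 to 0.173. Over left-out libraries Ticam2 ranged from -0.423 to 0.300 under isoflurane, -0.096 to 0.216 under propofol, -0.493 to 0.235 in the interaction, -0.163 to 0.181 between control groups and -0.503 to 0.229 between septic groups. Ly96 under propofol ranged from -0.158 to 0.059, Tlr5 in the interaction from -0.186 to 0.991 and Irak2 in the interaction from -0.143 to 0.015. Irf5 under propofol passed without library 11 (-0.52, adjusted p = 0.0469) and under isoflurane was lost on thinned counts and without library 5 or 8. The cause of these changes was not tested. DESeq2 gave no adjusted p for Tlr5 in the interaction. No paired analysis was possible because the labels number the libraries 1 to 16 and share no number between groups. Chosen after seeing the data, the pooled Tlr5 ratio with 1 library left out ranged from 1.08 to 2.40 under isoflurane, 1.02 to 1.27 under propofol, 0.167 to 0.359 between control groups and 0.269 to 0.427 between septic groups. Depth limits Tlr5, Ticam2, Ly96, Tlr3 and Tlr4 most, with as few as 1, 2, 12, 20 and 28 reads in a library.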
